A study of Mus musculus with 11 samples.

Results

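The genes described here are the D-type and E-type cyclins, the cyclin-dependent kinases (CDKs) and the CDK inhibitors of the G1 phase, with the retinoblastoma gene Rb1. The 10 members were Ccnd2, Ccnd3, Ccne1, Ccne2, Cdk4, Cdk6, Cdkn1a, Cdkn1b, Cdkn2c and Rb1. They were chosen by name from 21957 genes in all, with earlier results of these data known, and each matched 1 Ensembl identifier. The cells were primed OT1 cells, mouse CD8 T cells that carry a transgenic T cell receptor for an ovalbumin peptide. They were either stimulated for 2 h with beads against CD3 and CD28 or left unstimulated (labelled T0). Every sample then received cycloheximide, which holds ribosomes on mRNA, for 10 min. RNA was measured in 3 stimulated and 3 unstimulated libraries. Ribosome footprints, the mRNA fragments covered by translating ribosomes, were measured in 2 stimulated and 3 unstimulated libraries. The labels used here give no age, sex or priming protocol. Nothing in them tells whether the replicates came from different animals or cultures, so a p-value measures only the spread between these samples, which may be technical.

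A resting T cell enters the cell cycle when its receptor and costimulatory signals raise D-type cyclins, which bind and activate CDK4 and CDK6. These kinases phosphorylate the RB protein, which holds back the E2F transcription factors, and E2F then drives the E-type cyclins and the genes of DNA replication. CDK inhibitors oppose this: INK4 proteins bind CDK4 and CDK6, and Cip/Kip proteins bind cyclin and CDK complexes, p27 (Cdkn1b) being a known mark of quiescent lymphocytes.

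The RNA libraries held 21658263 to 39346699 counts over coding sequences and the footprint libraries 11136 to 23641. Levels are depth-scaled counts (CPM) with edgeR's TMM factors, and changes are log2 values of stimulated over unstimulated samples with their standard error. A call is an adjusted p under 0.05 by edgeR's quasi-likelihood test with Benjamini-Hochberg adjustment over all genes tested. The T cell markers Cd3d, Cd3e, Cd3g, Cd8a, Cd8b1, Cd2, Thy1 and Lck summed to 2145 to 3390 CPM in stimulated and 2818 to 3151 CPM in unstimulated RNA. The 5 B cell markers summed to 6.34 to 11.2 CPM in stimulated and 4.63 to 10.5 CPM in unstimulated RNA, with 0 footprints, and the 8 myeloid and dendritic cell markers to 10.5 to 18.5 CPM and 5.85 to 13.9 CPM. The CD4 T cell markers Cd4, Foxp3 and Cd40lg summed to 18.9 to 24.8 CPM in stimulated and 11.8 to 12.2 CPM in unstimulated RNA, Cd40lg being the most abundant and Cd4 at 2.85 CPM or less. The 2 NK cell markers reached 2.29 CPM and the 5 erythroid and platelet markers 4.46 CPM at most. The RNA libraries differed in composition. Between 12.8 and 25.0% of stimulated and between 4.09 and 14.9% of unstimulated counts fell on only 4 genes, Gm10800, Gm10801, Gm20594 and Lars2. Stimulated replicate 3 stood apart with a TMM factor of 0.830, against 0.968 to 1.08 in the other RNA libraries, and gave the highest level among the stimulated libraries for all 10 members.

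In RNA, the gene for cyclin D2 and the inhibitor gene Cdkn1a rose, and the inhibitor genes Cdkn1b and Cdkn2c fell. Ccnd2 was 2.41-fold higher and Cdkn1b 2.47-fold lower in stimulated cells. The other 6 members did not pass, with log2 changes from -0.65 for Ccne1 to 0.66 for Cdk6. Of the 10 members, 4 passed, where 8.26% of all 18886 genes tested did. In each direction there were 2, beside 3.58% of all genes higher and 4.68% lower. Among the 8494 genes with at least 10 CPM in RNA, to which all members belong, the shares in the same fit were 6.63% higher and 9.78% lower. The members' median log2 change was -0.28. The same median was 0.39 over all genes tested and -0.09 over the genes of at least 10 CPM. Bulk libraries do not tell fewer cells that express a gene from less RNA per cell.

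**Figure D1:**
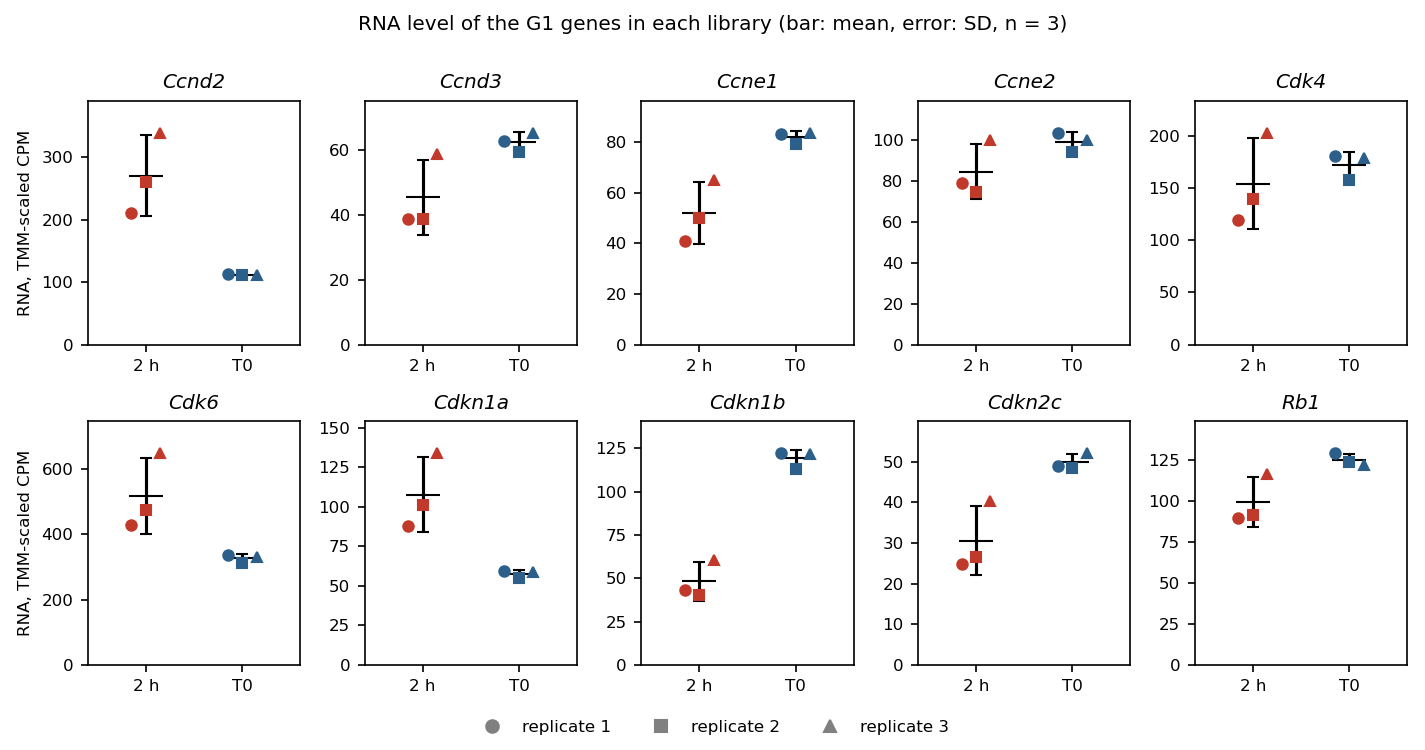
RNA level of each of the 10 genes in TMM-scaled CPM (y axis, from 0) in the 3 stimulated (2 h, red) and 3 unstimulated (T0, blue) libraries, with the mean and SD. Ccnd2, Cdk6 and Cdkn1a are higher in all stimulated libraries, and Ccne2 and Cdk4 overlap between the groups.

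Among the D-type cyclins, Ccnd2 (chr6:127125162-127152188 on GRCm38) encodes cyclin D2, the D-type cyclin that antigen receptor signals induce in lymphocytes. Its level was 211, 261 and 339.5 CPM in stimulated libraries, against 113, 111 and 112 CPM in unstimulated libraries. Every stimulated library was above every unstimulated one, and the spread was wide only after stimulation. The change was 1.27 ± 0.21 (edgeR adjusted p = 0.00396), and it stayed a call with each library left out in turn. Ccnd3 (chr17:47505051-47599689) encodes cyclin D3, which is needed for expansion of T cell precursors. It was at 38.5, 38.8 and 58.7 CPM in stimulated libraries and at 62.6, 59.2 and 65.2 CPM in unstimulated libraries. The groups did not overlap, by a margin of less than the spread between stimulated libraries, and the change of -0.46 ± 0.19 did not pass (edgeR adjusted p = 0.193).

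The E-type cyclins bind CDK2 at the transition into S phase. Ccne1 (chr7:38097984-38107490) was at 41.1, 50.2 and 65.3 CPM in stimulated libraries, against 83.2, 79.4 and 83.8 CPM in unstimulated libraries. All stimulated libraries were lower, and the change of -0.65 ± 0.19 was just outside the threshold (edgeR adjusted p = 0.0565). Ccne2 (chr4:11190433-11204779) ranged from 74.8 to 100.1 CPM in stimulated and from 94.1 to 104 CPM in unstimulated libraries. The groups overlapped, with a change of -0.23 ± 0.18 (edgeR adjusted p = 0.385).

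Of the kinases, Cdk6 (chr5:3341004-3531008) was at 429, 473 and 648 CPM in stimulated libraries and at 336, 311 and 331 CPM in unstimulated libraries. Its groups did not overlap, and the change of 0.66 ± 0.21 did not pass (edgeR adjusted p = 0.0777). Cdk4 (chr10:127063535-127067288) was at 119.6, 139 and 203 CPM in stimulated libraries and at 180.5, 158 and 179 CPM in unstimulated libraries. Stimulated replicate 3 lay above all unstimulated libraries and the other two below them, and the change was -0.16 ± 0.22 (edgeR adjusted p = 0.585).

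The promoters of the kinases are shown because the 2 genes share a partner and a substrate. Neither RNA change passed, so opposite directions are not established. A link of promoter words to RNA was not tested. The sequences are the 250 bases before the RefSeq transcript start on GRCm38, plus strand, with the E-box word CACGTG, the core site of Myc and related factors, in capitals.
Cdk4 (chr10:127063285-127063534): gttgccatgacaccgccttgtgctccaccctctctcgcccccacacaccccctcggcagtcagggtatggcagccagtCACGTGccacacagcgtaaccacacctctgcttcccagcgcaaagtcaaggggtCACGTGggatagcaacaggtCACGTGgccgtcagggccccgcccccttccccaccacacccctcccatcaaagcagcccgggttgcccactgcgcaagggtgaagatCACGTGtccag
Cdk6 (chr5:3343643-3343892): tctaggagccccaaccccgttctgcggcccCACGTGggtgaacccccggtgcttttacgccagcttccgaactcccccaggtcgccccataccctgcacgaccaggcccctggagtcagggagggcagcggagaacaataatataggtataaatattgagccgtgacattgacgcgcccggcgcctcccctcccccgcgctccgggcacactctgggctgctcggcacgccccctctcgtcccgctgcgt
Cdk4 held this word 4 times, starting 172, 118, 98 and 11 bases before the start, and Cdk6 held it once, 220 bases before the start shown. Of the other members with a promoter, Cdkn2c held it once, at 1 of its starts, beginning 34 bases after that start. Counts over members and shares over all promoters use windows of 300 bases, 250 before and 50 after the start. Of 32851 mouse promoters of 300 bases, 7.15% held CACGTG at least once, and 8 of them (0.0244%) held it 4 times or more. The cut of 4 is the count in Cdk4 itself and was used for this word only, so that share is no test. The word reads the same on both strands and was counted once per place. A match describes these letters and shows no binding.

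The Cip/Kip inhibitors moved in opposite directions. Cdkn1b (chr6:134920401-134925525) encodes p27, which holds cyclin E and CDK2 inactive in resting cells. Its level was 43.5, 40.4 and 60.8 CPM in stimulated libraries, against 122, 113 and 122 CPM in unstimulated libraries. Every stimulated library was far below every unstimulated one, and the change was -1.31 ± 0.19 (edgeR adjusted p = 0.00223), a call with each library left out. Cdkn1a (chr17:29090979-29100722) encodes p21, an inhibitor best known as a target of p53. It was at 87.6, 101 and 134 CPM in stimulated libraries, against 59.1, 54.7 and 58.8 CPM in unstimulated libraries. All stimulated libraries were higher, and the change was 0.90 ± 0.19 (edgeR adjusted p = 0.0134). Cdkn1a no longer passed when stimulated replicate 1 (edgeR adjusted p = 0.131), stimulated replicate 2 (0.215) or unstimulated replicate 3 (0.15) was left out, nor with RLE scaling (0.1), DESeq2 (DESeq2 adjusted p = 0.0787) or no filter (edgeR, 0.0582).

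The Cdkn1b promoter is shown as that of the member that fell most, as the 250 bases before the RefSeq start, plus strand. The capitals mark CCAAT, a word of NF-Y sites, and GGGCGG, the GC box of Sp1 sites.
Cdkn1b (chr6:134920151-134920400): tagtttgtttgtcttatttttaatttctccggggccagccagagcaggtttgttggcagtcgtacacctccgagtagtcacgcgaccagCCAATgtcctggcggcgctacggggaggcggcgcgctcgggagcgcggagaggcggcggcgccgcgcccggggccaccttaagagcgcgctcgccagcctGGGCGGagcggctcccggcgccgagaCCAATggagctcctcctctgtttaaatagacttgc
CCAAT stood 161 and 35 bases before the start and GGGCGG 61 bases before it, and the words did not overlap. On either strand, 37.4% of all 32851 promoters held CCAAT and 35.7% held GGGCGG. RefSeq promoters were found for 7 of the 10 members, 10 promoters in all. None of these 10 held an E2F word (TTTCCCGC, TTTCGCGC, TTTGCCGC or TTTGGCGC), the FOXO word TTGTTTAC or the CRE word TGACGTCA on either strand, words present in 2.26, 1.23 and 1.79% of all promoters, which says only that these letters are not in these windows.

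Cdkn2c (chr4:109660876-109666756) encodes p18, an INK4 inhibitor of CDK4 and CDK6. It was at 24.8, 26.7 and 40.4 CPM in stimulated libraries and at 49.1, 48.5 and 52.2 CPM in unstimulated libraries. All stimulated libraries were lower, with a change of -0.71 ± 0.19 close to the threshold (edgeR adjusted p = 0.0450). Cdkn2c no longer passed when stimulated replicate 1 (edgeR adjusted p = 0.143) or 2 (0.17), or unstimulated replicate 1 (0.05, at the threshold) or 3 (0.129), was left out. Rb1 (chr14:73192858-73325951), which encodes the RB protein itself, was at 89.2, 91.2 and 116 CPM in stimulated libraries and at 129, 124 and 122 CPM in unstimulated libraries. Its groups did not overlap, and the change of -0.33 ± 0.18 did not pass (edgeR adjusted p = 0.297).

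Counted by separation, the stimulated libraries lay above all unstimulated ones for 3 members and below all of them for 5. Over all genes tested, 15.4% were separated upwards and 13.6% downwards, and among genes of at least 10 CPM 16.2 and 24.4%. The calls depended on which libraries entered. Without unstimulated replicate 2, all 10 members passed, 3 higher and 7 lower, as did 67.8% of all genes, 35.6% higher and 32.1% lower. Without stimulated replicate 3, all 10 members passed too, 3 higher and 7 lower, as did 27% of all genes, 5.05% higher and 21.9% lower. The adjusted p of the members outside the threshold then became, without each of these libraries in that order, 7.8e-06 and 3.84e-04 for Ccnd3, 1.08e-06 and 5.76e-04 for Ccne1, 1.57e-04 and 0.00957 for Ccne2, 0.00145 and 0.0235 for Cdk4, 0.0101 and 0.0124 for Cdk6, and 4.6e-05 and 0.00268 for Rb1 (edgeR). Unstimulated replicate 2 had 14.9% of its counts in the 4 genes named above, against 4.09 and 5.14% in the other unstimulated libraries. It had 0.189% in 1541 olfactory, vomeronasal and defensin genes, against 0.0300 and 0.0407%. Stimulated replicates 1, 2 and 3 had 0.276, 0.203 and 0.0686% in these 1541 genes, so stimulated replicates 1 and 2 held more than unstimulated replicate 2. The part of these differences in the members' values was not tested. With genes of at least 10 CPM alone in the scaling and test, 8 members passed, 3 higher and 5 lower, against 36.9 and 36.4% of the genes tested.

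Scaling moved all members together. The median log2 change of the genes of at least 10 CPM was -0.09 with TMM and ran as low as -0.41 with DESeq2, so each member was also set against that median in every setting, a step chosen after seeing the data. Subtracting the median removes any shift shared by all genes, so narrow ranges across scalings follow from the step and test nothing. On this relative scale Ccnd2 was at 1.36, with a range of 1.33 to 1.41 over 15 alternatives. Cdkn1b was at -1.22 (-1.26 to -1.15), Cdkn1a at 0.99 (0.98 to 1.01) and Cdk6 at 0.76 (0.74 to 0.76). Among the lower members, Cdkn2c was at -0.61 (-0.69 to -0.58), Ccne1 at -0.56 (-0.59 to -0.52), Ccnd3 at -0.37 (-0.42 to -0.32) and Rb1 at -0.24 (-0.27 to -0.20). Ccne2 (-0.14, range -0.20 to -0.10) and Cdk4 (-0.07, range -0.14 to -0.04) stayed nearest to the median gene. Without the subtraction the ranges were wider, for example 0.34 to 0.76 for Cdk6, and no member changed sign in any setting on either scale.

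**Figure D2:**
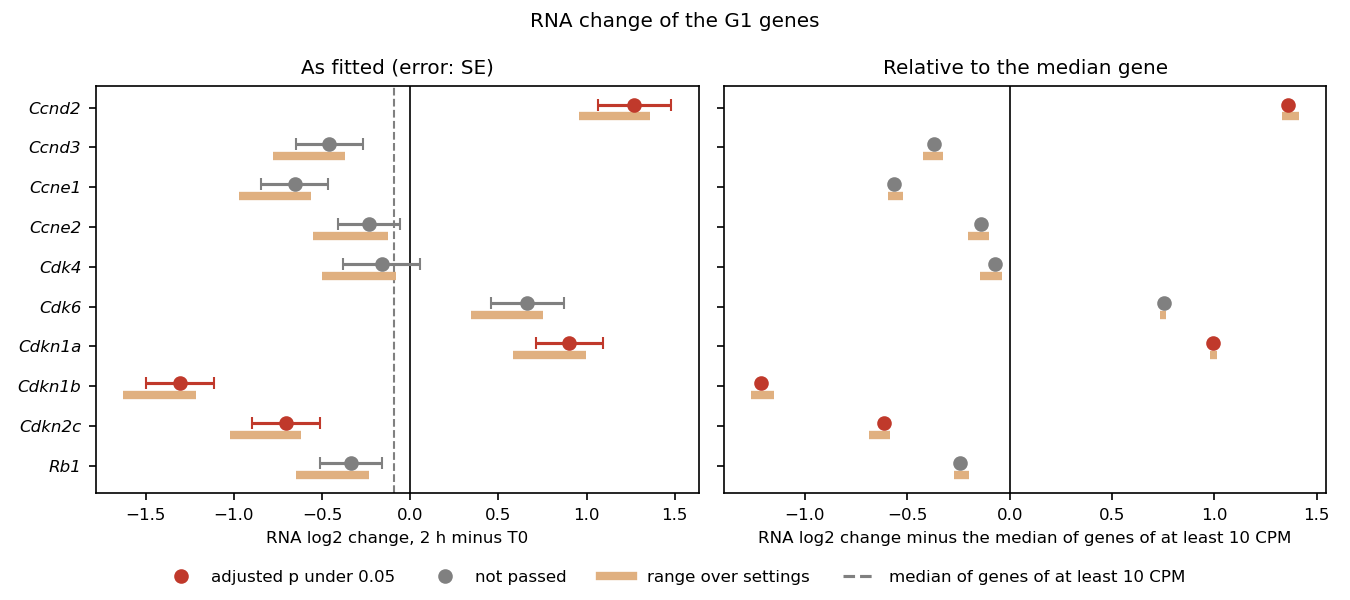
RNA log2 change of each gene, stimulated minus unstimulated (x axis), as fitted with its SE (left) and after subtracting the median of the genes of at least 10 CPM (right), with the range over settings as a bar. Red points passed an adjusted p of 0.05. The bars shrink on the right, for Cdk6 to a range of 0.74 to 0.76, since the subtraction removes any shift shared by all genes.

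Ratios of counts between members within 1 library are free of scaling, and their change shows unequal change of the 2 genes. The ratio of Cdkn1a to Cdkn1b was 2.02, 2.51 and 2.20 in stimulated libraries, against 0.483, 0.482 and 0.482 in unstimulated libraries. The balance of the Cip/Kip mRNAs thus differed 4.63-fold (4.37 to 4.87 with 1 library left out). Ccnd2 over Ccnd3 was 5.47, 6.73 and 5.78 in stimulated and 1.81, 1.88 and 1.71 in unstimulated libraries, a 3.32-fold difference. Cdk6 over Cdk4 was 3.59, 3.39 and 3.20 in stimulated and 1.86, 1.97 and 1.85 in unstimulated libraries, a 1.79-fold difference. The E-type cyclins differed least, Ccne1 over Ccne2 being 0.520, 0.671 and 0.652 in stimulated and 0.802, 0.844 and 0.835 in unstimulated libraries. Set across roles, Ccnd2 over Cdkn1b was 5.63 ± 0.811 in stimulated and 0.941 ± 0.0362 in unstimulated libraries (SD, n = 3 each), a 5.95-fold difference. The pairs were chosen with the members' changes known, so these ratios are a description with no test.

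**Figure D3:**
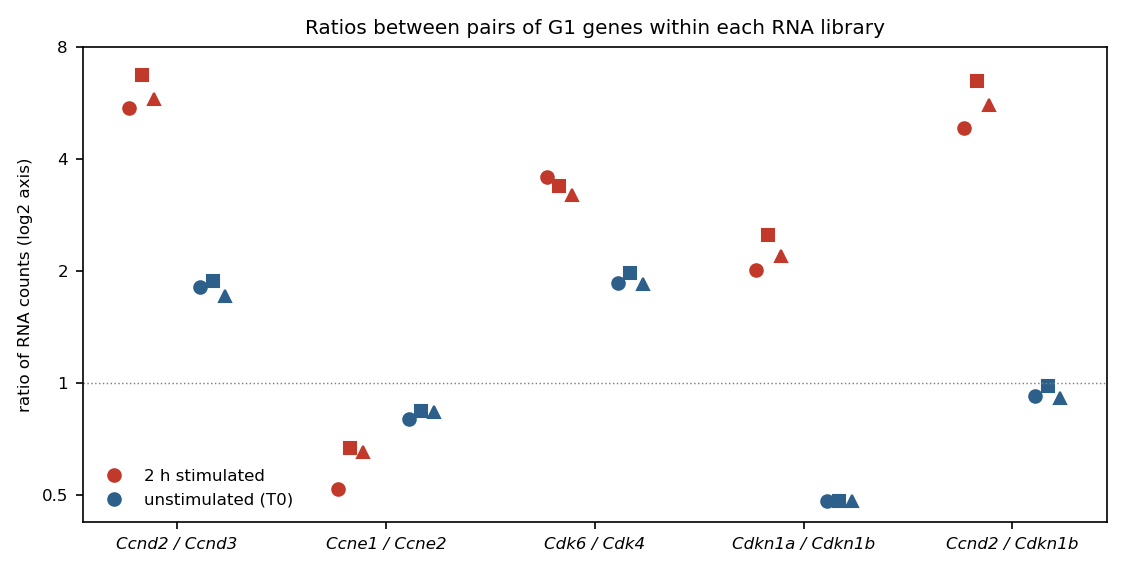
Ratio of RNA counts of 1 gene over another (y axis, log2 scale) within each stimulated (red) and unstimulated (blue) library, symbols as replicates 1 (circle), 2 (square) and 3 (triangle). The Cdkn1a over Cdkn1b ratio is 2.02 to 2.51 in stimulated and 0.482 to 0.483 in unstimulated libraries.

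Footprints on these mRNAs were few, and none of the 10 members passed the filter on low counts in footprints or for translational efficiency, so no member has a test there. Of all genes, 256 passed that filter in footprints, with 9.38% called, and 255 for efficiency, with 3.14% called. The members together had 20 and 40 footprints in the stimulated libraries (replicates 2 and 3) and 16, 7 and 12 in the unstimulated libraries (replicates 1, 2 and 3). With no filter, edgeR gave each member an adjusted p of 0.763 or more in footprints, and 0.398 or more for efficiency. Intervals below are exact 95% Poisson or binomial intervals of summed counts and cover counting error only.

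Ccnd2 had 4 and 11 footprints in stimulated libraries, against 1, 0 and 2 in unstimulated libraries. Each stimulated library held more than any unstimulated one, and the summed level was 4.48-fold higher (interval 1.27 to 24.1), beside a 2.41-fold higher RNA level. That ratio fell between 2.52 and 8.14 with 1 library left out, the lowest without stimulated replicate 3 and the highest without unstimulated replicate 3, and it was 2.82 without unstimulated replicate 2. Cdkn1a, the member with the most footprints, had 5 and 12 in stimulated libraries and 2, 5 and 2 in unstimulated libraries. The counts of the groups touched at 5. In scaled levels the groups overlapped, with unstimulated replicate 2 at 330 CPM and stimulated replicate 2 at 231 CPM. The level ratio was 1.69 (0.713 to 4.31), lowest at 1.05 without stimulated replicate 3. Ccnd3 had 2 and 5 footprints in stimulated libraries and 0 in all 3 unstimulated libraries. Taken as counted, the stimulated level was 2.09 times the level of 3 counts over the unstimulated group. This is not a lower bound, since the lower end of the exact interval of the ratio was 1.29. Its RNA fold was 0.727 with no call. For efficiency with no filter Ccnd3 had a log2 change of 14.96 ± 4.97, with an unadjusted p of 0.00263 and an adjusted p of 0.398 (edgeR). With 0 unstimulated footprints, the size of that change is not meaningful.

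The members with lower RNA had few footprints in either state. Cdkn1b had 1 and 0 in stimulated libraries and 3, 0 and 2 in unstimulated libraries, a level ratio of 0.179 (0.00379 to 1.6), an interval that includes no change. The ratio was 0.378 without stimulated replicate 3, 0.342 without unstimulated replicate 1 and 0.113 without unstimulated replicate 2, and without stimulated replicate 2 no stimulated footprint was left. Cdkn2c had 0 footprints in both stimulated libraries and 2, 0 and 0 in unstimulated libraries, a difference that was not detectable at this depth. Cdk4 had 4 and 3 in stimulated and 3, 1 and 3 in unstimulated libraries, a level ratio of 0.895 (0.268 to 2.99). Cdk6 had 2 and 4 in stimulated and 3, 0 and 0 in unstimulated libraries, a level ratio of 1.79 (0.382 to 11.1). All unstimulated footprints of Cdk6 lay in replicate 1, and the ratio was 1.13 without unstimulated replicate 2 and 1.08 without unstimulated replicate 3. Ccne1, Ccne2 and Rb1 had 5, 4 and 4 footprints in all 5 libraries.

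Footprint level over RNA level, a ratio in which gene length cancels, was highest for Cdkn1a and lowest for Cdk6 over both states together. For Cdkn1a it was 3.46 (2.02 to 5.54) in stimulated and 3.83 (1.75 to 7.26) in unstimulated cells. For Cdk6 it was 0.254 (0.0933 to 0.554) in stimulated and 0.225 (0.0464 to 0.658) in unstimulated cells. The median over the 8494 genes of at least 10 CPM was 0.799 in stimulated and 0.823 in unstimulated cells, above the interval of Cdk6 and below that of Cdkn1a in both states. Over both states, Cdkn1a had 26 footprints where its share of RNA would give 7.26, and Cdk6 had 9 where its share would give 36.9. Cdkn1a ranked at the 93.1 percentile of those genes and Cdk6 at the 20.8 percentile. Ccnd2 was at the 55.3 and Cdk4 at the 52.8 percentile of the same genes, whose median over both states was 0.927. Of these 8494 genes, 7151 had at least 1 footprint in the 5 libraries. The rest have a ratio of 0 at this depth, so they rank below Cdk6 and lower the median. The 2279 genes with at least 10 footprints are selected by the count that enters the ratio, and their median was 1.75. Among them Cdkn1a was at the 83.3 percentile, Ccnd2 at 23.4 and Cdk4 at 20.8. The ratios of the stimulated and unstimulated states lay within each other's intervals for both Cdkn1a and Cdk6. Cdk4, which binds the same cyclins as Cdk6, had a ratio of 0.996 (0.400 to 2.05) in stimulated and 0.993 (0.399 to 2.05) in unstimulated cells. Its interval over both states (0.544 to 1.67) lay above that of Cdk6 (0.111 to 0.463). Cdkn1a and Cdk6 were picked out as the extremes of these same ratios, so the comparisons of intervals are a description with no test.

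**Figure D4:**
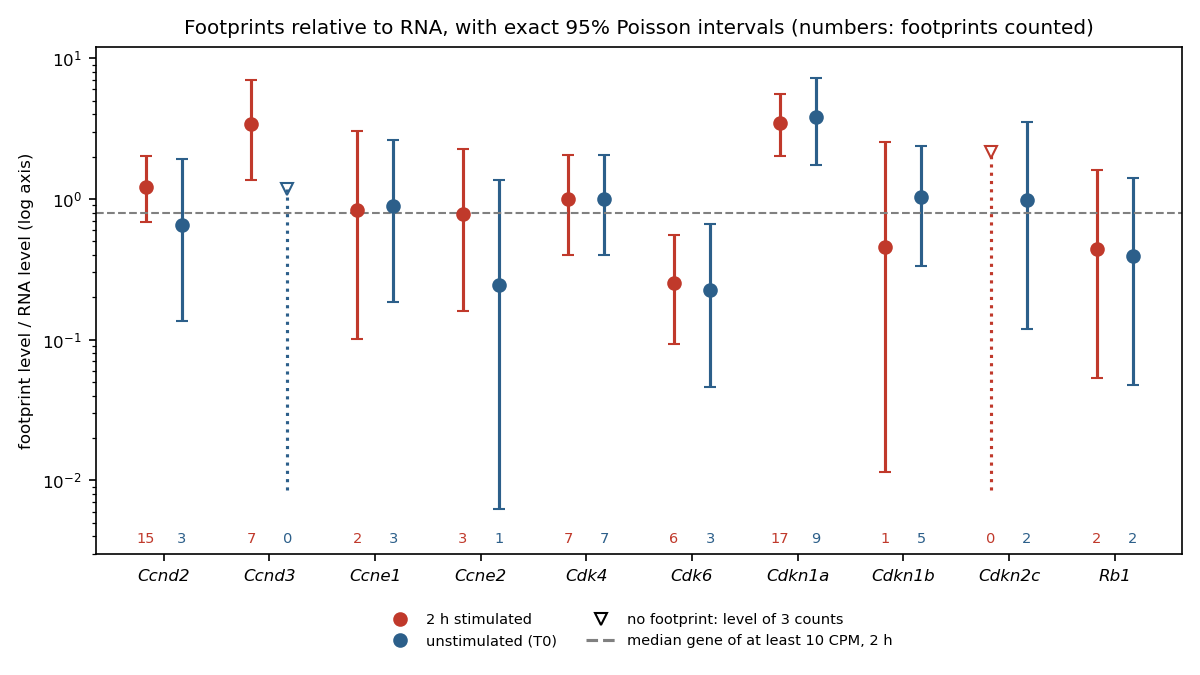
Footprint level divided by RNA level (y axis, log scale) for each gene in stimulated (red) and unstimulated (blue) cells from group sums, with exact 95% Poisson intervals and the number of footprints under each point. Cdkn1a lies above and Cdk6 below the dashed line (median gene of at least 10 CPM at 2 h, 0.799) in both states, and open triangles mark the level of 3 counts where no footprint was found.

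Related genes of the pathway were counted in 5 lists in RNA. The counts stand beside the shares of the same fit, 3.58% higher and 4.68% lower over all genes and 6.63% higher and 9.78% lower among genes of at least 10 CPM. With genes of at least 10 CPM alone in the scaling and test, 36.9% of genes were called higher and 36.4% lower. Of 14 other cyclins, CDKs and inhibitors of G1, 2 fell and none rose (list median -0.01), and with genes of at least 10 CPM alone 4 of 10 were called higher and 4 lower. The 2 that fell in the fit over all genes tested were Cdkn2d (22.6 ± 5.77 CPM in stimulated and 42.5 ± 1.86 CPM in unstimulated libraries, SD, n = 3 each), the INK4 gene for p19, and Ccng2 (46.2 ± 9.65 and 100.8 ± 4.02 CPM), which encodes an atypical cyclin of quiescent cells. Their changes were -0.91 and -1.12 (edgeR adjusted p = 0.0103 and 0.00401). Cdk2, the partner of the E-type cyclins, did not pass (-0.66, edgeR adjusted p = 0.0515), and Ccnd1 was at 2.67 CPM in stimulated and 1.45 CPM in unstimulated libraries. Cdkn2c and Cdkn2d were thus both lower, while Cdkn2a and Cdkn2b stayed under 5 CPM in both groups.

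Among 17 pocket protein, E2F, DP and DREAM genes, 5 fell and 1 rose (median -0.38), and with genes of at least 10 CPM alone 4 of 17 were called higher and 12 lower. E2f2, an activator E2F, was at 57.3 ± 13.5 CPM in stimulated and 139 ± 9.21 CPM in unstimulated libraries (-1.28 ± 0.20, edgeR adjusted p = 0.00313). The repressors E2f7 and E2f8 also fell, E2f8 being at 53.7 CPM in stimulated and 108 CPM in unstimulated libraries (-1.01), as did E2f1 (-0.55) and Rbl2 (-0.64), the gene of p130, the pocket protein of quiescent cells. E2f5, a partner of p130, rose by 0.78. E2f1 (edgeR adjusted p = 0.169 to 0.238) and Rbl2 (0.205 to 0.269) no longer passed when any of stimulated replicates 1 and 2 and unstimulated replicates 1 and 3 was left out. E2f5 (0.0835 to 0.199) no longer passed in the same cases other than unstimulated replicate 1. E2f5 was also no call with RLE scaling, DESeq2 or no filter.

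Of 15 genes for turnover and activation of G1 cyclin and CDK complexes, 3 fell and none rose (median -0.16), and with genes of at least 10 CPM alone 3 of 14 were called higher and 5 lower. The phosphatase genes Cdc25b (-1.35) and Cdc25c (-0.92) fell, while Cdc25a, which acts at the G1 to S transition, was at 0.05 with no call. Skp2, the ubiquitin ligase subunit that targets p27 for degradation, fell by 0.62 on the log2 scale (24.6 ± 4.11 CPM in stimulated and 37.8 ± 1.45 CPM in unstimulated libraries, edgeR adjusted p = 0.0309). Skp2 did not pass in the 4 cases given for E2f1 (edgeR adjusted p = 0.146 to 0.207).

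Of 26 E2F target genes of the G1 to S transition, 4 fell and none rose (median -0.46), beside 9.78% of all genes of at least 10 CPM lower. All 26 passed the filter on low counts. In unstimulated libraries Mcm6 had a mean of 564 CPM, Pcna 518 CPM, Ccna2 304 CPM and Ung 15.2 CPM. Whether the unstimulated cells were cycling was not tested. Cdc6, the replication licensing factor, was at 77.6 ± 16.2 CPM in stimulated and 152.6 ± 1.70 CPM in unstimulated libraries (-0.98 ± 0.19). Tk1 (-0.98), Rrm2 (-0.88) and Chaf1a (-0.77) also fell. Cdc6 did not pass when stimulated replicate 2 was left out (edgeR adjusted p = 0.0673), nor Tk1 when stimulated replicate 1 was (0.0524). Rrm2 (0.0562 to 0.117) and Chaf1a (0.0535 to 0.129) did not pass in the 4 cases given for E2f1. With genes of at least 10 CPM alone, 24 of the 26 were called lower and 1 higher, where 36.4% of genes were lower and 36.9% higher.

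Beside Cdkn1a, 18 other p53 target genes were listed, of which 3 rose and 1 fell, and with genes of at least 10 CPM alone 10 of 16 were called higher and 5 lower. The death receptor genes Fas (0.86) and Tnfrsf10b (0.85) and the exonuclease gene Aen (0.89) rose, and Sesn1 (-1.30 ± 0.18), also a FOXO target, fell. Mdm2, the feedback inhibitor of p53, did not pass (0.33, edgeR adjusted p = 0.320). Fas (edgeR adjusted p = 0.136 to 0.187) and Tnfrsf10b (0.0697 to 0.148) did not pass in the 3 cases given for E2f5, nor Aen (0.0589 to 0.252) in the 4 given for E2f1. All 3 were no call with RLE scaling, DESeq2 or no filter, and the list median of 0.14 turned to -0.08 with RLE scaling, -0.04 with library totals and -0.18 with DESeq2.

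**Figure D5:**
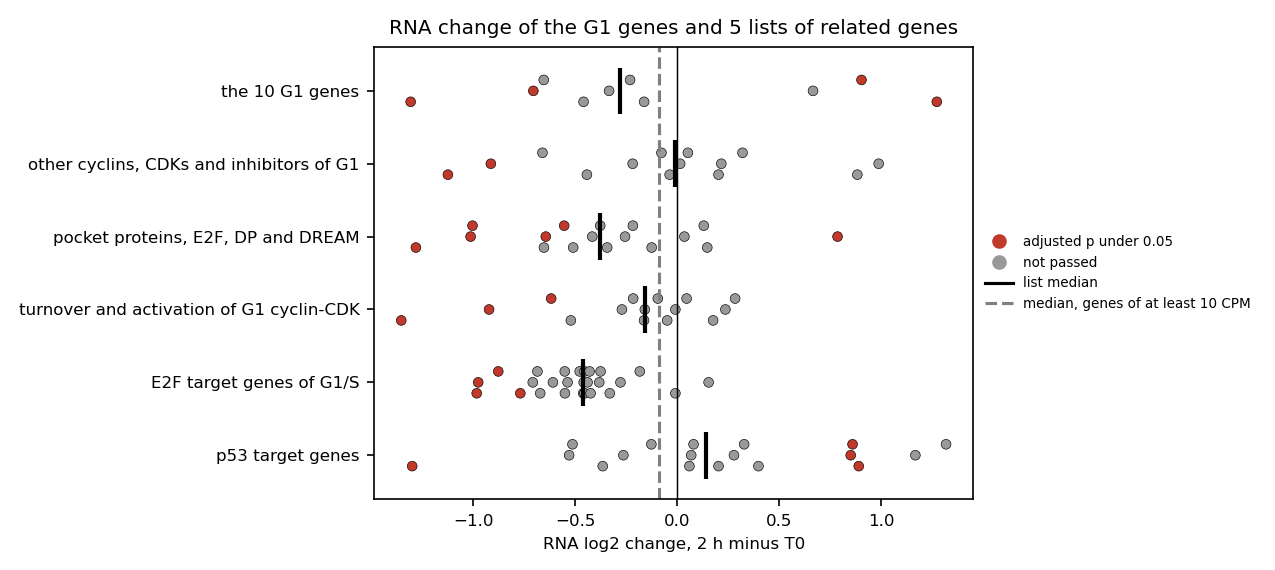
RNA log2 change, stimulated minus unstimulated (x axis), of the 10 G1 genes and of 5 lists of related genes, 1 point per gene tested, red where the adjusted p was under 0.05, with the list median as a black bar. The E2F targets centre at -0.46, left of the dashed median of -0.09 for genes of at least 10 CPM.

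Some values carry a limit from the annotation. Ccnd3 overlaps Bysl, Ccne2 overlaps Ints8 and Rb1 contains Lpar6, all counted as genes of their own. Cdk4, which ends at 127067288 on chr10, only meets Tspan31, which starts at 127067287 and is also counted. How reads on opposite strands were counted is not given in the sources used here. Coding lengths were not used, so levels are compared within a gene and not between genes.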

How the data were processed

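RNA and ribosome footprints of primed OT1 cells were measured in 11 libraries. The authors deposited unnormalized counts of reads per coding sequence. STAR 2.5 and the build mm10 (GRCm38) are named in the submitters' processing notes. The counting tool, annotation, strand handling and read filters are not given in the sources used here. The series table and the 11 single-library files held the same 241527 values. Of 21957 genes, 21838 were given a symbol by Ensembl identifier. Positions and promoters came from RefSeq on GRCm38.p6.

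Changes within an assay were fitted by quasi-likelihood with edgeR 4.0.16 (R 4.3.3), using TMM factors, full library totals and edgeR's filter (minimum count 10, minimum total 15), and efficiency as the interaction of assay and stimulation over all 11 libraries. Genes tested were 18886 in RNA, 256 in footprints and 255 for efficiency, with 1560, 24 and 8 calls. All tests were two-sided. The scripts were tested on simulated data. A count of 0 allows up to 3 counts, 127 to 269 CPM in footprint libraries. Footprint reads carry no stated molecular identifiers, so intervals cover counting error only. Summed footprints of 2 groups were compared with exact binomial intervals.

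The members and lists were chosen with earlier results of these data known. Related genes were named where they were called and reached 10 CPM in either group, at most 6 per list (3 for efficiency). Others named were chosen after their values were seen. Alternatives were DESeq2 1.42.0, limma 3.58.1 (voom), other scalings, filters and thresholds, a replicate block, each library left out, and RNA thinned to 15237 counts. The percentile over genes of at least 10 CPM, the pair ratios and the relative scale were added after seeing the data.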

Additional observations from a re-analysis of the deposited data

How the results depend on the processing

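Of the 10 members, 4 were called in RNA, 2 higher and 2 lower. The number was 6 with DESeq2 (1 higher and 5 lower, with 13.6% of all genes called) or voom (3 and 3, 17.9%), 5 without the 4 abundant genes (2 and 3, 8.83%) or with the replicate block (2 and 3, 12.7%), and 4 with RLE scaling (1 and 3, 8.99%) or no filter (1 and 3, 6.61%). It was 9 with library totals (27.6% of the genes tested, 5.32% higher and 22.3% lower). With genes of at least 10 CPM (73.3%) or a mean of at least 50 counts (39.1%) it was 8. At an adjusted p under 0.01 it was 2 (3.33%), and with 1 library left out 2 to 10 (3.05 to 67.8%). With RNA thinned to footprint depth and without stimulated replicate 1, no member passed the filter (0 tested). Over all genes, RNA calls by edgeR numbered 1560 (677 higher). They were 2912 with DESeq2 (353 higher), 3387 with voom (1867), 5220 with library totals (1005), 1698 with RLE scaling (334), 1676 without the 4 genes (525), 6228 of 8494 genes of at least 10 CPM (3138), 1417 with no filter (410), 4932 with a mean of at least 50 counts, 628 at an adjusted p under 0.01, 22 of 179 after thinning, and 583 to 13024 with 1 library left out. Each RNA library moved that count by more than 1.5 times: 789, 583 and 5255 calls without stimulated replicate 1, 2 and 3, and 917, 13024 and 646 without unstimulated replicate 1, 2 and 3. Ccnd2 and Cdkn1b were called in all 16 alternatives other than thinning, and no member changed sign in them. The causes of these differences were not tested.

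With the replicate number as a block, RNA calls were 2404 and 5 of the members, Ccne1 being added (edgeR adjusted p = 0.0227). Same-numbered RNA libraries deviated from their group means with correlations of -0.396, 0.300 and 0.624, so not every pair was above 0.1 and the numbers were not used as pairs. The labels used here do not say what a shared number means.

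Footprint calls (24) were 11 with no filter, 14 with a mean of at least 50 counts and 12 to 30 with 1 library left out (15 and 12 without stimulated replicate 2 and 3), where a lone stimulated library is assumed to vary like the others. Efficiency calls (8, with 54 genes at an unadjusted p under 0.05) were 31 with DESeq2, 15 with library totals, 3 with genes of at least 10 CPM, 4 with no filter, 0 at an adjusted p under 0.01, 0 with voom (38 at an unadjusted p under 0.05) and 0 to 9 with 1 library left out (edgeR, 47 or more at an unadjusted p under 0.05).

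In 60 of 60 alternatives the footprint to RNA ratios stayed within their intervals. RNA levels with library totals moved by more than 1 SD in 9 of 20 cases, all in unstimulated libraries. Levels per coding length were not run, since no coding lengths were used here. Footprint depth limits what can be said of every member's translation.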

Other observations

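The RNA profile nearest to that of Ccnd2 over the 6 RNA libraries, by Euclidean distance between centred log2 CPM among 8491 other genes of at least 10 CPM, was that of Serpina3f (distance 0.079), a serine protease inhibitor gene, at 76.1 CPM in stimulated and 32.1 CPM in unstimulated libraries. Cd3eap (0.118), a subunit of RNA polymerase I, and the helicase gene Dhx33 (0.119) followed. The profiles nearest to Cdkn1b were those of Phf19 (0.117), a Polycomb-associated gene, Pik3r1 (0.121), the regulatory subunit of PI3 kinase, and Il16 (0.123). Il16 was at 67.7 CPM in stimulated and 175 CPM in unstimulated libraries. This nearness is a description and carries no test.

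Among the E2F targets, 5 had enough footprints to be tested, Mcm3, Mcm4, Mcm5, Mcm6 and Rrm1. None passed in footprints by edgeR, and Mcm4, a subunit of the replicative helicase, passed for efficiency, 2.43 ± 0.65 higher in stimulated cells on the log2 scale (edgeR adjusted p = 0.0458, where 3.14% of 255 genes passed). The Mcm4 call was lost in 9 of 11 fits without 1 library (edgeR adjusted p = 0.0521 to 0.196), and it stayed without stimulated RNA replicate 3 or unstimulated footprint replicate 2.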
